A study of Mus musculus with 36 samples.

Results

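The genes described here build the mitotic spindle, hold the spindle checkpoint, segregate chromosomes and divide the cell. They were chosen by name, as 46 mouse gene symbols matched to the gene IDs of the deposited tables, and all 46 were found among 51912 gene rows. They divided into 8 role groups: cyclins and kinases of mitotic entry (11 genes), the spindle checkpoint (5), anaphase (4), kinetochore and centromere (8), the chromosomal passenger complex (3), chromosome structure (7), the spindle (5) and cytokinesis (3). Polyadenylated RNA had been sequenced from cultures of HM1, a single line of mouse embryonic stem cells, on their way to motor neurons. There were 12 time points (days 0, 0.5, 1, 1.5, 2, 2.5, 3, 3.5, 4, 5, 6 and 7) with 3 libraries each, 36 in all. In the cultures of every time point, N2B27 medium with 10 ng/ml bFGF came first, and for the day before day 0 the GSK3 inhibitor CHIR99021 (5 µM), the TGF-beta receptor inhibitor SB431542 (10 µM) and the BMP receptor inhibitor DMH1 (2 µM) were added to it. Libraries of day 0.5 onwards came from cells moved at day 0 to N2B27 with 100 nM retinoic acid and 500 nM SAG, an activator of Smoothened in the Hedgehog pathway, with fresh medium each day. Day 0 libraries, labelled as control, came from cells that had received neither.

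Mitosis is driven by the kinase Cdk1 bound to B-type cyclins, and the cyclins are destroyed by the anaphase-promoting complex once the spindle checkpoint has seen every kinetochore attached. Genes of this kind are transcribed together late in the cell cycle, in cycling cells, and are kept low in cells that have left the cycle. In the embryonic spinal cord, neural progenitors divide next to the central canal and motor neurons arise from them and stop dividing.

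The 36 libraries held between 26567321 and 35757989 counts, and the lowest count of any of the 46 genes in a library was 158. Markers of the caudal epiblast (T, Nkx1-2, Cdx1, Cdx2, Fgf8 and Wnt3a) summed to 13.7 to 15.1 TPM (a share of a library's transcripts, corrected for gene length) at day 1, against 617 to 691 TPM at day 0, and all 6 were detected at day 0. Neuron markers summed to 3170 to 3410 TPM at day 4, against 99.4 to 105 TPM at day 1. The labels number the 3 libraries of a day as biological replicates and do not say whether they were separate cultures or separate differentiations. The p-values therefore rest on the spread between these libraries, and how much of it is technical is not known. In bulk RNA, fewer cells of a type and less RNA per cell cannot be told apart.

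The summed level of the 46 genes was highest at day 1.5 and lowest at day 7, with a second, smaller peak at day 3.5. It was 4701 ± 11.1 TPM at day 0, 5528 ± 166 TPM at day 1, 5893 ± 47.9 TPM at day 1.5, 4851 ± 313 TPM at day 2, 3716 ± 268 TPM at day 4, 2999 ± 68.8 TPM at day 5, 1828 ± 85.7 TPM at day 6 and 1111 ± 87.8 TPM at day 7 (SD, n = 3 libraries each). The sum at day 7 was 18.9% of the sum at day 1.5. All 46 passed the test for any change over the 12 time points, but so did 96.1% of the 17990 genes tested, so that count says little about them.

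**Figure D1:**
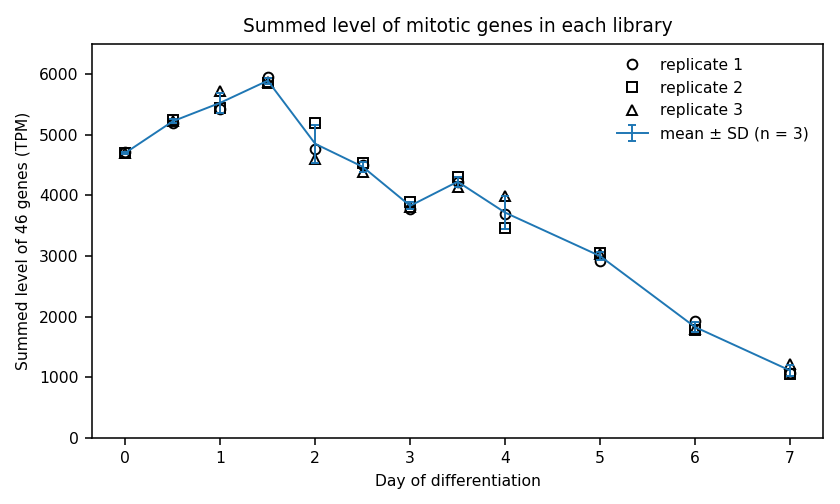
Summed TPM of the 46 mitotic genes (vertical axis) in each of 36 libraries by day of differentiation (horizontal axis); open symbols are libraries and the line joins means with SD bars (n = 3). The sum was 1111 TPM at day 7, against 5893 TPM at day 1.5, and it was 4226 TPM at day 3.5, against 3828 TPM at day 3.

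By mean TPM, 25 genes were highest at day 1.5, 8 at day 1, 6 at day 0, 4 at day 0.5, 2 at day 2 and 1 at day 4. The 1 gene with its highest mean at day 4 was Cdc25b, a phosphatase that activates Cdk1. Day 7 was the lowest day for 45 of the 46 genes, and for Cdc25b the lowest day was day 0. At day 7 a gene stood at a median of 16.2% of its own highest mean, between 9.81% for Ncapg, a condensin subunit, and 62.1% for Bub3, a checkpoint protein. At that day 41 genes were under 25% of their highest mean, and the other 5 were Smc4 (25.9%), Smc2 (27.6%), Racgap1 (36%), Cdc25b (44.7%) and Bub3. As a description over the 12 time points, which share their libraries between genes, the correlation of a gene's mean level with the mean of the other 45 had a median r of 0.988 and was at least 0.95 for 44 genes. The 2 others were Racgap1 (r = 0.833) and Cdc25b (r = 0.116).

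**Figure D2:**
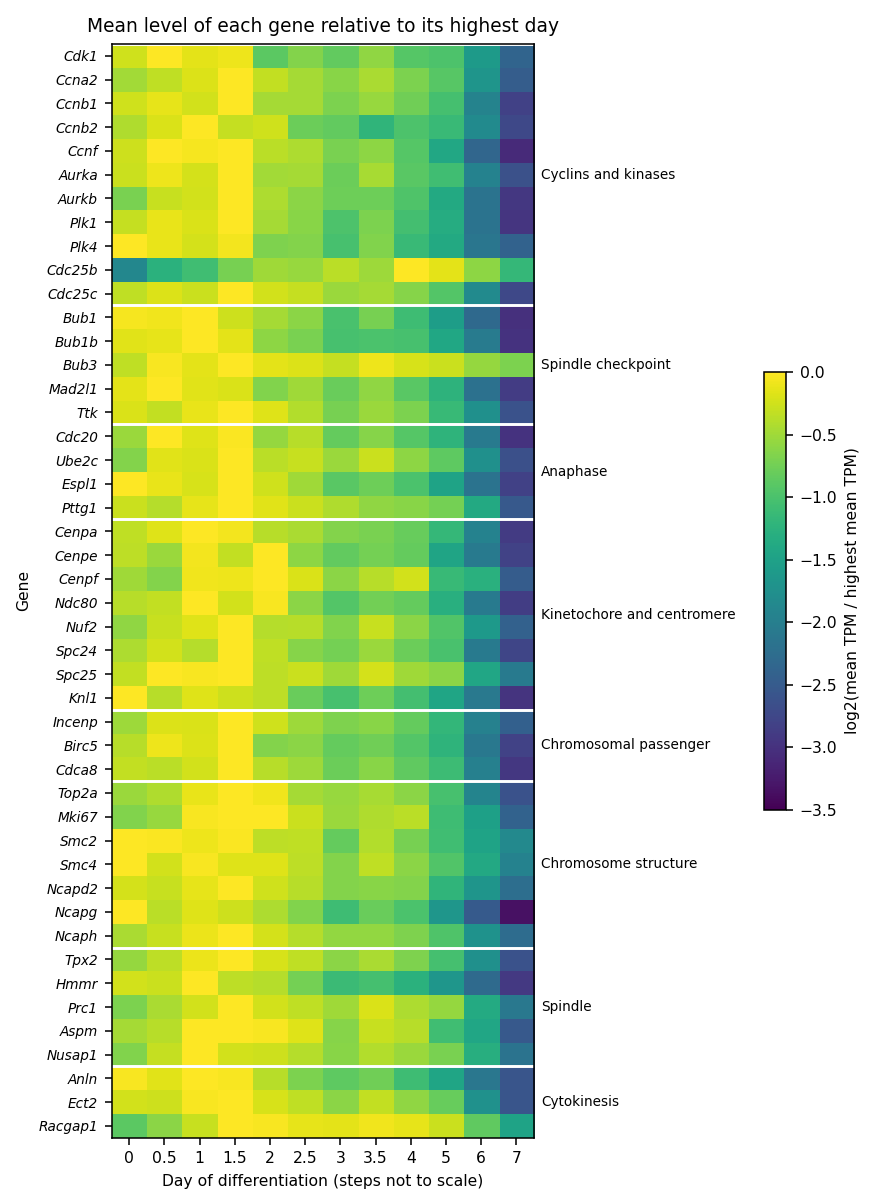
Heat map of the mean TPM of each of the 46 genes (rows, by role) at each of 12 time points (columns), as the log2 ratio to that gene's own highest mean, from 0 (yellow) to -3.5 (dark). Most rows are brightest at day 1 or day 1.5 and darkest at day 7; Cdc25b is brightest at day 4, and Bub3 changes least.

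Levels differed widely between the genes on the length-corrected TPM scale. Top2a, the topoisomerase that untangles sister chromatids, had the highest mean at every one of the 12 time points, with 82.7 TPM at day 7, against 507 TPM at day 1.5. Knl1, a kinetochore scaffold, had the lowest mean from day 1 on, with 3.26 TPM at day 7, against 21.3 TPM at day 1.5. At days 0 and 0.5 the lowest was Aspm, a spindle pole protein whose loss causes microcephaly, with 16.9 TPM at day 0.

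Promoters of genes that moved together, and of the 2 that followed them least closely, are shown from RefSeq on GRCm38.p6. Each holds 300 bases, from 250 before the annotated start to 50 after the start. Capitals mark the cell cycle genes homology region, or CHR (TTTGAA, or TTCAAA on the other strand), which binds the DREAM and B-MYB-MuvB complexes, and CCAAT boxes (ATTGG on the other strand), which bind NF-Y. Top2a (r = 0.991), Ccnb2 (0.971) and Plk1 (0.995) are examples from the 44 genes with a correlation of at least 0.95 to the others. Ccnb2 departed from most genes at day 3.5 against day 3, where it was lower. Racgap1 and Cdc25b are the pair of genes with the lowest correlation to the others.
Top2a (chr11:99024140-99024439, minus strand): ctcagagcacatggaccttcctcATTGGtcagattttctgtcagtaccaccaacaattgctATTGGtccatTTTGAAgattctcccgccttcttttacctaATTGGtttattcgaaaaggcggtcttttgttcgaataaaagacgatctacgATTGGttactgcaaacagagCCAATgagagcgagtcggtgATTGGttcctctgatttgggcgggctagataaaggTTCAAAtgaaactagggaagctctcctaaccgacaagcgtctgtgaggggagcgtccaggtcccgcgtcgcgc
Ccnb2 (chr9:70421505-70421804, minus strand): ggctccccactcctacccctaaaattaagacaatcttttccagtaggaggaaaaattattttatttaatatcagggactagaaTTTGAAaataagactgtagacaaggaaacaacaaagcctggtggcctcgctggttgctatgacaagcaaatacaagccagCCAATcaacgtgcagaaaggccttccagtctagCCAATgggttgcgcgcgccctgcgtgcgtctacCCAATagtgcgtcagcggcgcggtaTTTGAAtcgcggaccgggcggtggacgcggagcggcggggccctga
Plk1 (chr7:122159185-122159484, plus strand): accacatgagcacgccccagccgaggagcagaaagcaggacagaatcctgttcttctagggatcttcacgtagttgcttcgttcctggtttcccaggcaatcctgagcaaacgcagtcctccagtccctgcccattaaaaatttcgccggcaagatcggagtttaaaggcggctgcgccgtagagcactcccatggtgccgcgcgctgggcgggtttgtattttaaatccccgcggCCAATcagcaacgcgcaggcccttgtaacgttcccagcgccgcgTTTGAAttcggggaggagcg
Racgap1 (chr15:99651607-99651906, minus strand): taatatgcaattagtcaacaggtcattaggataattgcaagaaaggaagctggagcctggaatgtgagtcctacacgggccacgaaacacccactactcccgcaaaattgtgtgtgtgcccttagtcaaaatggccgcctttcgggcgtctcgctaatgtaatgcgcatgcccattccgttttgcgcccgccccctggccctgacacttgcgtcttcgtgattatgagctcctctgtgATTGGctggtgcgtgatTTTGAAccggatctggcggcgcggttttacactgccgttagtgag
Cdc25b (chr2:131186698-131186997, plus strand): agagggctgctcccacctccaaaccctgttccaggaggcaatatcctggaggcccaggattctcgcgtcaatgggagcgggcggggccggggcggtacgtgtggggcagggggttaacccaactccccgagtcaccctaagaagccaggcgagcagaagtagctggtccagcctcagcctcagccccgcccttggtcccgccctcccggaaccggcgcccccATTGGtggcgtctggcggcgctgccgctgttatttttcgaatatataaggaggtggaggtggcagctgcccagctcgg

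The Top2a window held 2 CHR matches and 6 CCAAT matches, the Ccnb2 window 2 and 3, and the Plk1 and Racgap1 windows 1 of each. The letters TTTGAA were in neither strand of the Cdc25b window, which held 1 CCAAT match. They were also missing from the windows of Birc5, Bub1, Ccnb1, Cenpe, Mad2l1, Ncaph, Nuf2, Nusap1, Plk4 and Pttg1, whose correlation with the mean of the other genes ran from 0.969 (Plk4) to 0.998 (Ncaph). No other form of the CHR was searched for, so a window without TTTGAA is not shown to lack a CHR. RefSeq gave 42 promoters for 39 of the 46 genes. TTTGAA on either strand was in 31 of the 42 (73.8%), against 17.9% of all 32851 promoters of that length. CCAAT was in 32 (76.2%), against 37.4% of all promoters. Both motifs stood in 28 (66.7%), against 6.95% of all. An E2F-type motif, TTTNNCGC, was in 7 (16.7%), against 5.17% of all promoters, counted alone and free to overlap the other motifs. CHR elements are known from genes of this kind, so the shares describe the chosen genes, and no test was made.

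In the first day the genes moved little, and mostly up. At day 1 against day 0, 27 of the 46 were higher, 5 were lower and 14 did not pass (edgeR's quasi-likelihood test, Benjamini-Hochberg adjusted p under 0.05 over 17990 genes), with a median log2 fold change of 0.20 and a range of -0.25 to 0.89. Over all genes tested 62.5% were called, 31% higher and 31.5% lower, with a median of 0.00. All 5 spindle genes were higher, 6 of the 8 kinetochore genes, 2 of the 5 checkpoint genes and 5 of the 11 cyclins and kinases, and the differences between these roles were not tested. The rises included Cdc25b (0.89), the microtubule bundler Nusap1 (0.65), the proliferation antigen Mki67 (0.62), the cytokinesis regulator Racgap1 (0.59) and the kinase Aurkb (0.50), as log2 fold changes. The falls were small: Plk4, the kinase of centriole duplication (-0.25), Knl1 (-0.23), the cohesin-cleaving protease Espl1 (-0.22), Ncapg (-0.16) and Smc2, a condensin core subunit (-0.14). Cdk1 itself (0.10) and cyclin B1, Ccnb1 (-0.05), did not pass. By limma on log2(TPM + 1), 26 genes were higher and 1 lower, where the split of all genes was 4975 higher and 5049 lower. Calls of Birc5, Cenpe, Knl1, Ncapd2, Ncapg, Plk4, Smc2 and Ttk were lost under at least 1 other setting or with a library left out, and Bub1b, Ect2, Plk1 and Pttg1 gained a call. Over the same step all 11 neural progenitor markers were higher, with a median log2 fold change of 4.21, and they summed to 1760 to 1850 TPM at day 1, against 428 to 442 TPM at day 0. All 6 endothelial markers (74.4 to 92.7 TPM at day 1, against 39.6 to 41.7 TPM at day 0) were higher too, as were 4 of 6 astroglial markers, with 2 lower, and 3 of 6 fibroblast markers. All 6 caudal epiblast markers were lower, and 6 of 10 neuron markers were lower and 3 higher. The part of these cell types in the changes of the mitotic genes was not tested.

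By day 4 nearly every gene had fallen relative to day 1, in all 8 role groups. At day 4 against day 1, 44 of the 46 were lower, 1 was higher and 1 did not pass, with a median log2 fold change of -0.93 (edgeR's quasi-likelihood test). Over all genes tested 74.5% were called, 38.2% higher and 36.3% lower, with a median of 0.02. The role medians lay between -1.02 (cyclins and kinases) and -0.81 (spindle). The largest falls were those of Hmmr, a spindle assembly factor (-1.61), and the checkpoint proteins Bub1 (-1.41) and Bub1b (-1.40). The smallest changes were those of Racgap1 (-0.10), Bub3 (-0.35) and Prc1, which bundles microtubules of the central spindle (-0.44). The higher gene was Cdc25b, at 0.70.

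TPM are shares per transcript length, and on log2(TPM + 1) the median of all genes at day 4 against day 1 shifted to 0.20, with 8971 called higher and 4101 lower by limma. On that scale the median of the 46 genes was -0.59, with 42 lower and 2 higher. The second higher gene was Racgap1, at 0.18 (limma, adjusted p = 0.00193), and Bub3 and Cenpf no longer passed.

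By day 7 all 46 genes had fallen relative to day 4. At day 7 against day 4, 46 of 46 were lower and 0 higher, with a median log2 fold change of -1.97 (edgeR's quasi-likelihood test). At an unadjusted p under 0.05 the count of higher genes was 0 as well, and limma and DESeq2 also gave 46 lower and 0 higher. Over all genes tested 66.3% were called by edgeR, 33.5% higher and 32.9% lower, and by limma on log2(TPM + 1) 6327 were higher and 4929 lower. The largest falls were those of Cenpf, a kinetochore protein (-2.37), Ncapg (-2.33) and Cenpe, the kinetochore motor (-2.21). The smallest were those of Bub3 (-0.51), Cdc25b (-1.19) and Smc2 (-1.20). Role medians ran from -2.09 for kinetochore and centromere to -1.49 for cytokinesis. Against day 0, day 7 had 45 genes lower and 1 higher, Cdc25b, with a median of -2.68, where 85.3% of all genes were called, 44.1% higher and 41.2% lower. On log2(TPM + 1) that split was 9556 genes higher and 5501 lower by limma, and 45 of the 46 were again lower.

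**Figure D3:**
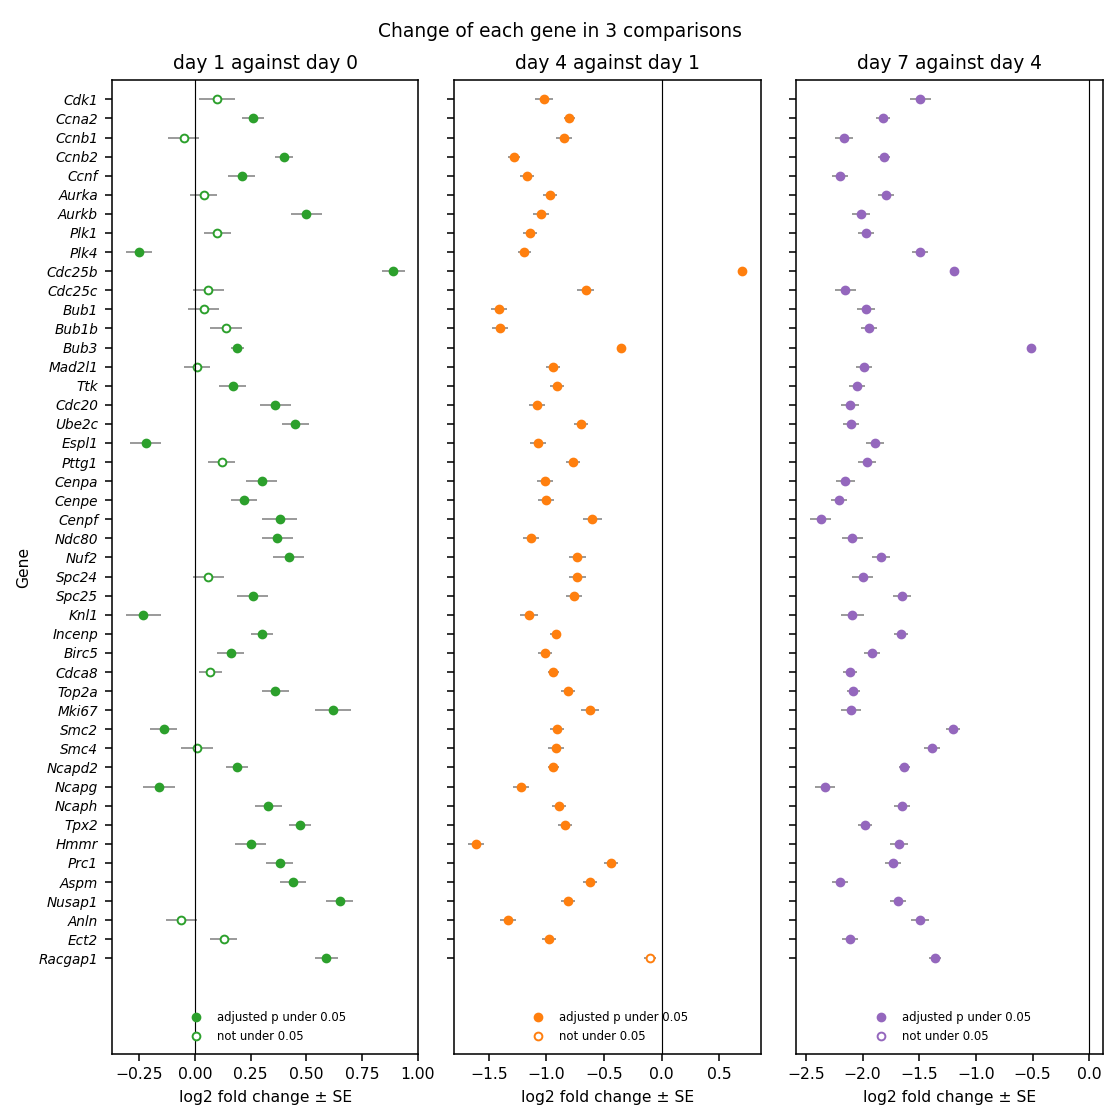
Log2 fold change (horizontal axes) with approximate SE for each of the 46 genes (rows, by role) at day 1 against day 0, day 4 against day 1 and day 7 against day 4; filled points passed an adjusted p under 0.05 and open points did not. Nearly all points lie left of 0 in the second panel, where Cdc25b is at 0.70, and all 46 lie left of 0 in the third.

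Markers of several cell types moved over the same days. Neuron markers (10 of 10 higher at day 4 against day 1) summed to 3170 to 3410 TPM at day 4, against 99.4 to 105 TPM at day 1, and to 3160 to 3350 TPM at day 7. Neural progenitor markers summed to 3580 to 3690 TPM at day 4, against 1760 to 1850 TPM at day 1, although 7 of the 11 were lower and 3 higher, and Vim alone made up 2350 ± 25.9 TPM of the sum at day 4. At day 7 against day 4, 8 of the 11 progenitor markers were lower and 1 higher, with a median log2 fold change of -0.61, while the list summed to 3480 to 3590 TPM at day 7, against 3580 to 3690 TPM at day 4, and Vim averaged 2580 ± 46.4 TPM at day 7. At day 4 against day 1, the other lists summed to 1630 to 1930 against 35.8 to 37.1 TPM (astroglia, 3 of 6 higher and 2 lower), 103 to 113 against 16.4 to 20.4 TPM (fibroblasts, 5 of 6 higher) and 81 to 89.5 against 74.4 to 92.7 TPM (endothelium, 3 higher and 3 lower). Astroglial markers (5 of 6 higher at day 7 against day 4) summed to 3490 to 3650 TPM at day 7, against 1630 to 1930 TPM at day 4. Fabp7 alone made up most of both sums, with 1670 ± 148 TPM at day 4 and 3190 ± 78.5 TPM at day 7. Fibroblast markers (6 of 6 higher) summed to 884 to 1010 TPM at day 7, against 103 to 113 TPM at day 4. Endothelial markers (1 of 6 higher and 4 lower) summed to 61.7 to 70.5 TPM at day 7, against 81 to 89.5 TPM at day 4. Blood and microglia markers, of which 2 of 5 were tested and both were lower, summed to 0.07 to 0.39 TPM at day 7, with Cx3cr1 and Hbb-bh1 at 0, against 0.25 to 0.86 TPM at day 4. The part of these cell types in the fall of the mitotic genes was not tested.

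Among the cyclins and kinases, Cdk1, the kinase that drives mitotic entry (chromosome 10, 69335146 to 69352938, minus strand, GRCm38), had 226, 215 and 211 TPM at day 0, 221, 238 and 244 TPM at day 1, 124, 137 and 150.2 TPM at day 4, and 46.9, 46.4 and 56.7 TPM at day 7. The libraries of days 0 and 1 overlapped, and those of days 4 and 7 each lay below all libraries of the earlier 2 days. The log2 fold change was -1.02 ± 0.08 at day 4 against day 1 and -1.49 ± 0.09 at day 7 against day 4. Ccnb1, its cyclin partner, had 244, 241 and 237 TPM at day 0, 240.3, 244 and 252 TPM at day 1, 162, 166 and 183 TPM at day 4, and 39.6, 36.2 and 46.2 TPM at day 7. It changed by -0.85 ± 0.07 and then -2.16 ± 0.08 on the log2 scale. Plk1, a kinase of mitotic entry and spindle assembly, had 126, 133 and 132 TPM at day 0, 140.4, 138 and 142 TPM at day 1, 74.4, 72.4 and 87.4 TPM at day 4, and 18.9, 20.3 and 22.9 TPM at day 7. All libraries of day 7 were below all of day 4, and all of day 4 below all of day 1.

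Cdc25b was higher at day 4 than at day 1, where 44 of the other 45 genes were lower. This gene (chromosome 2, 131186949 to 131198497, plus strand) had 18.3, 19.2 and 19.4 TPM at day 0, 33.8, 33.5 and 33.1 TPM at day 1, 73.3, 69.8 and 67.2 TPM at day 4, and 30.8, 30.3 and 33.0 TPM at day 7. No libraries of neighbouring days in that list overlapped. At day 4 against day 1 the log2 fold change was 0.70 ± 0.04 (edgeR's quasi-likelihood test, Benjamini-Hochberg adjusted p = 2.33e-16), higher in all 3 libraries of day 4 than in any of day 1. At day 7 it was still above day 0, by 0.40 ± 0.05. Its means were 49.1 TPM at day 3.5, 70.1 TPM at day 4 and 63.5 TPM at day 5. Its exons overlap those of Spef1 on the other strand, and since counting by strand is not stated, reads from the overlap of the 2 genes cannot be told apart. Cdc25c, the related phosphatase, followed the majority, with 24.7 ± 2.73 TPM at day 4, against 31.7 ± 0.726 TPM at day 1, and 5.77 ± 0.781 TPM at day 7.

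In the spindle checkpoint, Bub1b, the BubR1 protein that restrains the anaphase-promoting complex, had 110.0, 107 and 106 TPM at day 0, 115, 120.1 and 126 TPM at day 1, 58.9, 51.4 and 67.7 TPM at day 4, and 15.0, 13.6 and 17.0 TPM at day 7. Bub3 binds Bub1b and Bub1 and brings them to the kinetochore, and at day 7 it stood at 62.1% of its highest mean, beside 12.6% for Bub1b. It had 107, 97.3 and 110.0 TPM at day 0, 118, 125 and 119 TPM at day 1, 109, 110.3 and 122 TPM at day 4, and 83.8, 80.9 and 80.8 TPM at day 7. Libraries of days 1 and 4 overlapped for Bub3 in TPM, and those of day 7 lay below all others. At day 7 against day 4 the log2 fold change was -0.51 ± 0.04 for Bub3 and -1.94 ± 0.07 for Bub1b. Mad2l1, the checkpoint effector, and Ttk, the kinase that starts checkpoint signalling, fell by 1.99 and 2.05 on that scale. Bub1, the checkpoint kinase, had 86.3, 81.8 and 80.4 TPM at day 0, 82.9, 80.3 and 93.8 TPM at day 1, 41.8, 35.3 and 44.0 TPM at day 4, and 9.58, 10.5 and 11.6 TPM at day 7, with days 0 and 1 overlapping.

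Of the anaphase genes, Cdc20, which activates the anaphase-promoting complex, had 172, 181 and 185 TPM at day 0, 233, 231 and 229.7 TPM at day 1, 131, 127 and 153 TPM at day 4, and 29.8, 30.7 and 37.7 TPM at day 7. The 4 days did not overlap. Ube2c, the E2 enzyme of that complex, had a mean of 352 ± 4.81 TPM at day 1.5, 233 ± 19.3 TPM at day 4 and 56.4 ± 5.30 TPM at day 7. Securin (Pttg1) and separase (Espl1), its inhibited target, changed by -1.96 and -1.89 at day 7 against day 4 on the log2 scale.

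Among the kinetochore genes, Cenpf had 41.3, 41.3 and 39.8 TPM at day 0, 55.9, 46.6 and 61.3 TPM at day 1, 57.6, 35.9 and 52.7 TPM at day 4, and 11.1, 9.46 and 10.4 TPM at day 7. The second library of day 4 was low, and days 1 and 4 overlapped. Cenpe had 37.8, 37.2 and 38.0 TPM at day 0, 43.4, 44.7 and 49.3 TPM at day 1, 29.3, 21.6 and 29.9 TPM at day 4, and 6.18, 7.16 and 7.07 TPM at day 7. For Cenpe too the second library of day 4 was low, and no days overlapped. The second library of day 4 was the lowest of its day for 37 of the 46 genes, and the third library of day 4 was the highest for 37. Without any 1 of the 6 libraries compared, the median of the 46 genes at day 4 against day 1 ran from -1.00 to -0.88, with 44 or 45 genes lower. At day 2, the second library was the highest for 42 of the 46 genes. How many of all genes tested were lowest or highest in these libraries was not counted, so a shift of the whole library cannot be told apart.

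Aurkb, the kinase of the chromosomal passenger complex that corrects wrong attachments, had 97.5, 107 and 108 TPM at day 0, 142, 146 and 142 TPM at day 1, 84.0, 86.0 and 90.0 TPM at day 4, and 19.6, 20.4 and 26.3 TPM at day 7. The other subunits Incenp, Birc5 and Cdca8 changed by -1.66, -1.92 and -2.11 at day 7 against day 4, beside -2.01 for Aurkb, as log2 fold changes. No overlap was seen between the 4 days for Aurkb.

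In the chromosome structure group, Top2a had 356, 351 and 349 TPM at day 0, 467, 453 and 479.7 TPM at day 1, 329.5, 305 and 360.3 TPM at day 4, and 77.0, 75.8 and 95.3 TPM at day 7. Days 0 and 4 overlapped, and day 7 was 4.22-fold lower than day 4 by scaled counts. Mki67, which coats mitotic chromosomes, had 60.0, 57.7 and 61.4 TPM at day 0, 101, 84.6 and 91.4 TPM at day 1, 79.5, 60.9 and 80.3 TPM at day 4, and 17.7, 16.5 and 19.3 TPM at day 7. Its days 1 and 4 did not overlap, and day 7 was below all others. Ncapg had 76.3, 72.1 and 67.0 TPM at day 0, 56.8, 60.6 and 73.1 TPM at day 1, 42.6, 30.6 and 35.4 TPM at day 4, and 7.14, 6.88 and 7.12 TPM at day 7. Smc2 had 87.0, 83.5 and 86.8 TPM at day 0, 77.5, 78.2 and 86.5 TPM at day 1, 55.4, 46.2 and 54.6 TPM at day 4, and 23.6, 24.6 and 22.8 TPM at day 7. In both condensin genes days 0 and 1 overlapped, and day 4 lay below both, with day 7 below day 4. The core condensin subunits Smc2 and Smc4, which both condensin complexes share, changed less at day 7 against day 4 (-1.20 and -1.39) than the condensin I subunits Ncapd2 (-1.63), Ncaph (-1.65) and Ncapg (-2.33), a difference that was not tested. The exons of Ncapd2 overlap Gm28967 on the same strand, and its values are uncertain for that reason.

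Of the spindle and cytokinesis genes, Aspm had 16.6, 16.5 and 17.4 TPM at day 0, 23.4, 22.5 and 23.8 TPM at day 1, 20.1, 14.5 and 19.7 TPM at day 4, and 4.18, 4.03 and 3.97 TPM at day 7. Days 0 and 4 overlapped for Aspm, and the second library of day 4 was again low. Hmmr had 76.1, 70.4 and 68.6 TPM at day 0, 76.1, 84.0 and 92.9 TPM at day 1, 35.8, 30.1 and 39.2 TPM at day 4, and 10.6, 10.8 and 11.9 TPM at day 7. Prc1 had 93.9, 91.4 and 85.3 TPM at day 0, 115, 122 and 135 TPM at day 1, 103, 100.5 and 119.6 TPM at day 4, and 31.9, 32.2 and 38.0 TPM at day 7. Days 1 and 4 were apart for Hmmr and overlapped for Prc1. Anln, the anillin scaffold of the cleavage furrow, had 64.4, 58.3 and 61.4 TPM at day 0, 63.2, 61.0 and 64.3 TPM at day 1, 28.0, 27.1 and 33.4 TPM at day 4, and 10.3, 9.27 and 12.1 TPM at day 7. Its log2 fold change was -1.33 ± 0.07 at day 4 against day 1. Racgap1, a partner of the furrow activator Ect2, had 71.8, 67.7 and 70.6 TPM at day 0, 103, 99.0 and 112 TPM at day 1, 115, 114 and 126 TPM at day 4, and 45.8, 43.2 and 50.6 TPM at day 7. Its TPM were higher in every library of day 4 than of day 1, while on scaled counts the log2 fold change was -0.10 ± 0.05 (edgeR's quasi-likelihood test, Benjamini-Hochberg adjusted p = 0.0568). It passed as lower in the same test with the replicate number as a block (-0.10, adjusted p = 0.049), and without the first library of day 1 (-0.14, 0.0145), the second of day 1 (-0.12, 0.0485) or the third of day 4 (-0.15, 0.0112), and as higher by limma on TPM. By day 7 it had fallen on both scales, by 1.36 on the log2 scale of counts against day 4.

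**Figure D4:**
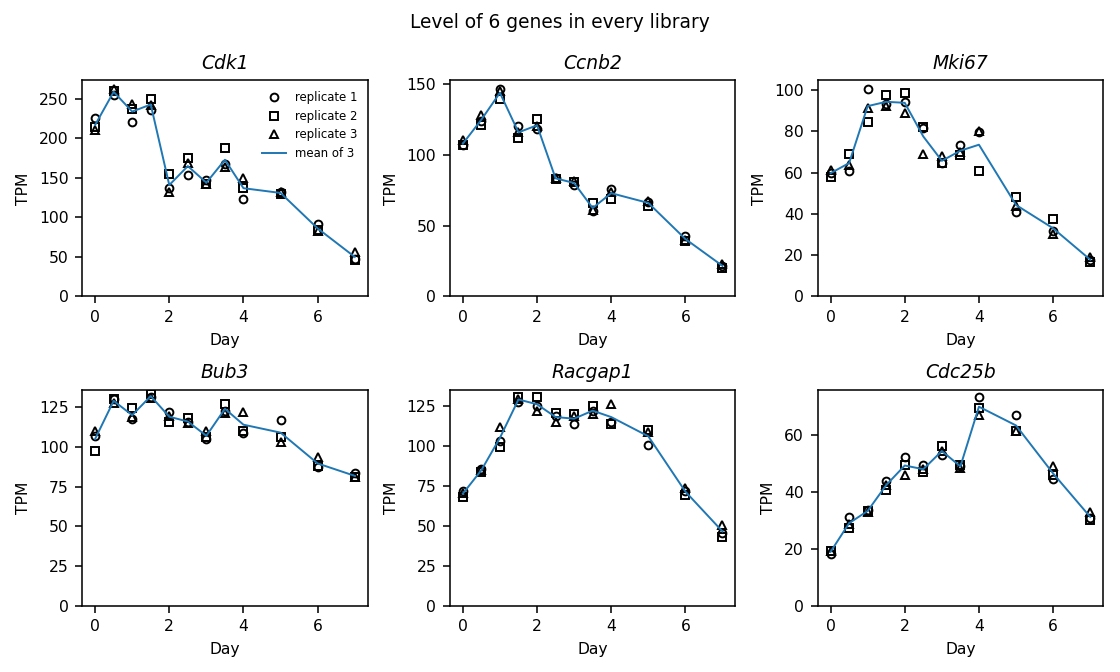
TPM (vertical axes, from 0) of 6 genes in every library by day (horizontal axes); open symbols are libraries and lines join the means of 3. Cdk1, Ccnb2 and Mki67 end far below their early level, Bub3 keeps 62.1% of its highest mean at day 7, Racgap1 stays high to day 5, and Cdc25b is highest at day 4.

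Neighbouring time points placed the changes. At day 0.5 against day 0, 21 genes were higher and 5 lower, where 54.3% of all genes were called, 27.6% higher and 26.7% lower. At day 1 against day 0.5 the counts were 22 and 6 (47.5% of all genes called, 23.3% higher and 24.3% lower), and at day 1.5 against day 1 they were 22 and 6 again (46.4% called, 27% and 19.4%). The 3 steps each had a median log2 fold change of 0.13. The first large fall was at day 2 against day 1.5, with 40 lower and 1 higher (53.3% of all genes called, 27.2% lower and 26.1% higher), and a median of -0.40. Cdk1 fell most in that step, by 0.93, and Cenpe was the higher gene, at 0.21. Cdk1 had a mean of 141 TPM at day 2, against 243 TPM at day 1.5.

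At day 2.5 against day 2, 25 genes were lower and 0 higher by edgeR (47.8% of all genes called, 22.9% lower and 24.9% higher). At an unadjusted p under 0.05, 2 were higher, and DESeq2 gave 0. By limma on log2(TPM + 1) 17 were lower and 3 higher, where the split of all genes was 3064 lower and 4391 higher. At day 3 against day 2.5, 42 were lower and 1, Cdc25b, higher (34.4% called, 16.3% lower and 18.1% higher). The course then turned up: at day 3.5 against day 3, 27 genes were higher and 3 lower (40.8% called, 21% higher and 19.8% lower), with a median of 0.19. The lower 3 were Ccnb2, Pttg1 and Cdc25b. At day 4 against day 3.5, 41 were lower and 1, Cdc25b, higher (40.2% called, 20.8% lower and 19.4% higher), with a median of -0.32. At day 5 against day 4, 38 were lower and 0 higher (38% called, 16.8% lower and 21.2% higher), with a median of -0.29. The 2 steps with the largest median falls followed, each a full day long. Steps up to day 4 are shorter, so these falls do not compare as rates. At day 6 against day 5 all 46 were lower and 0 higher (50.5% called, 26.4% lower and 24.1% higher), with a median of -0.86. At day 7 against day 6, 45 were lower and 0 higher (20.3% called, 8.95% lower and 11.3% higher), with a median of -0.76, and Bub3 (-0.07) did not pass. On log2(TPM + 1) the split of all genes by limma was 5855 higher and 2704 lower at day 2 against day 1.5, 3374 and 1635 at day 3 against day 2.5, 4828 and 1554 at day 4 against day 3.5, and 5447 and 2977 at day 6 against day 5. In those 4 steps 30, 36, 26 and 45 of the 46 genes were lower and 3, 1, 2 and 0 higher. The last step had the lowest share of all genes called among the 11 steps. For days 5, 6 and 7 the count of higher genes was 0 at an unadjusted p under 0.05, and by limma and DESeq2, too.

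The rises at days 1.5 and 3.5 led to a comparison that was added after these values were seen: the mean of days 1.5, 2.5 and 3.5 against days 1, 2, 3 and 4, with days 1 and 4 at a weight of 0.5. Because it was built from those same rises, its calls and p-values are a description and no support for them. In the mean of days 1.5, 2.5 and 3.5, 40 of the 46 genes were higher, 3 were lower and 3 did not pass. The median log2 difference was 0.19 (edgeR's quasi-likelihood test). Not each of those days was a rise, since at day 2.5 against day 2 the counts were 0 higher and 25 lower. Over all genes tested 53.3% were called, 27.9% higher and 25.4% lower, and by limma on log2(TPM + 1) the split of all genes was 3194 higher and 5396 lower and that of the 46 genes 30 and 3. Cdc20, Cdk1 and the spindle pole kinase Aurka were highest, each at 0.36. Cdk1 had means of 234 TPM at day 1, 243 TPM at day 1.5, 141 TPM at day 2, 165 TPM at day 2.5, 144 TPM at day 3, 173 TPM at day 3.5 and 137 TPM at day 4. Ccnb2, a B-type cyclin, ran the other way, at -0.19, with means of 144, 116, 121, 83.5, 80.2, 62.5 and 73.0 TPM at those 7 time points. Cenpe (-0.09) and Cdc25b (-0.07) were the other 2 lower genes, and Hmmr, Mki67 and Ndc80 did not pass. Calls of Anln, Bub1b, Cenpa, Cenpe, Cenpf, Knl1, Ncaph, Nusap1, Pttg1, Racgap1 and Top2a were lost in this comparison under at least 1 other setting or with a library left out. Cenpe did not pass without the third library of day 1.5, for example (-0.08, edgeR, adjusted p = 0.0869), and Hmmr passed as higher without the second library of day 2 (0.09, adjusted p = 0.0447) or the third of day 4 (0.08, adjusted p = 0.0427).

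A course that bends down after day 1.5 enters this contrast as well as any alternation. Medium was changed once a day, and the hour of sampling relative to the change is not given in the sources used here, so its part was not tested. Among other genes, 70 of 95 other mitotic genes were higher and 2 lower in the same comparison. Fibroblast markers were lower (6 of 6) and neuron markers mixed (6 higher and 2 lower of 10). Of the neural progenitor markers 6 of 11 were lower and 1 higher, and 3 of 6 astroglial and 2 of 6 endothelial markers were lower. The part of these cell types was not tested.

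**Figure D5:**
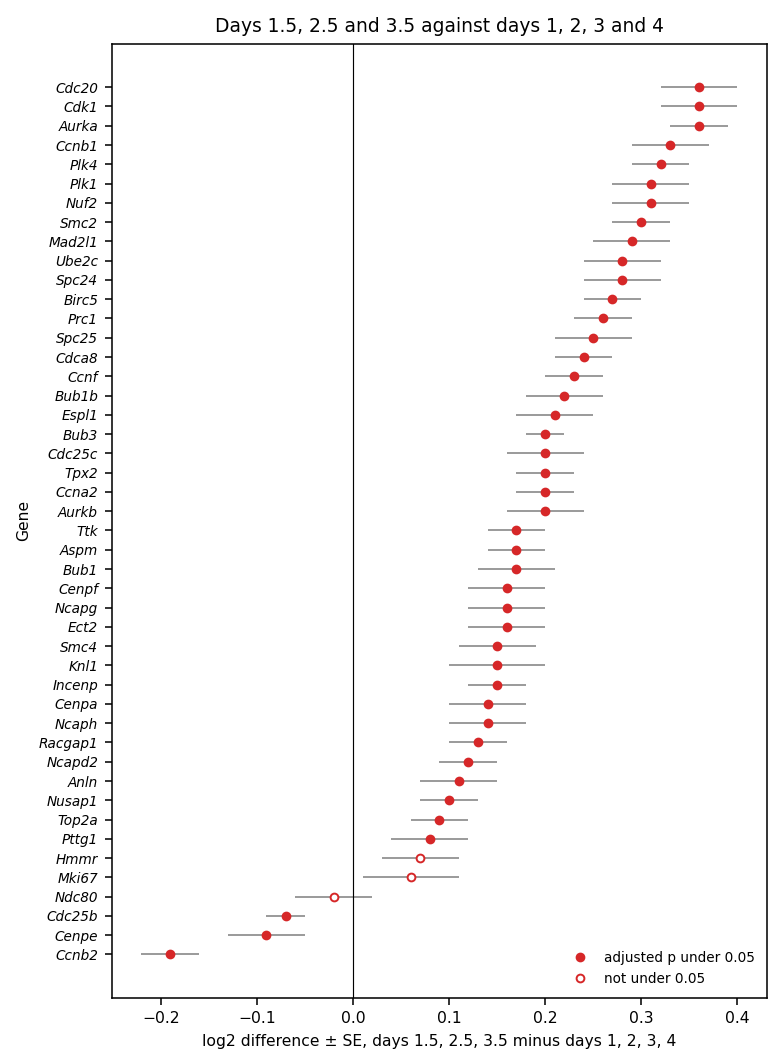
Log2 difference (horizontal axis) with approximate SE of each of the 46 genes (rows, sorted) between the mean of days 1.5, 2.5 and 3.5 and that of days 1, 2, 3 and 4; filled points passed an adjusted p under 0.05. Cdc20, Cdk1 and Aurka stand at 0.36 and Ccnb2 at -0.19, and 40 filled points lie right of 0.

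Other genes of the same pathways, 95 in 7 lists that share no gene with the 46, mostly fell as well. At day 4 against day 1, 76 were lower and 11 higher, with a median log2 fold change of -0.70, beside -0.93 for the 46 genes. At day 7 against day 4, 86 were lower and 3 higher, with a median of -1.19, beside -1.97. The difference between the lists was not tested. All 13 cohesin genes, all 9 regulators of mitotic entry and all 3 condensin II genes were lower in both comparisons. Cohesin had a median of -0.54 at day 7 against day 4. By limma on log2(TPM + 1), 10 of the 13 cohesin genes passed as lower at day 4 against day 1, and the counts of the entry regulators and condensin II were the same. The largest falls at day 4 against day 1 included the acetyltransferase Esco2 (-1.31) and sororin, Cdca5 (-1.24), of the cohesin list, Ncapg2 (-1.22) and Ncapd3 (-0.80) of condensin II, and Gtse1 (-1.54) and the Cdk1-inhibiting kinase Pkmyt1 (-1.25) of the entry regulators. Depdc1a (-1.37) and the checkpoint ATPase Trip13 (-1.19) fell most in the spindle and midbody list.

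Subunits of the anaphase-promoting complex went in both directions, while its activator Cdc20 and its E2 enzyme Ube2c fell. Of its 15 listed genes, 5 were higher and 7 lower at day 4 against day 1, with a median of -0.04 and changes between Anapc1 (-0.47) and Anapc16 (0.37). Over all genes tested 38.2% were higher and 36.3% lower, with a median of 0.02, so that split says little about the complex. The direction depends on the scale, since by limma on log2(TPM + 1) 10 were higher and 2 lower, with a median of 0.18 beside the all-gene 0.20. Anapc11 (-0.31) was the other large fall, and Anapc4 (0.23) the other large rise. At day 7 against day 4, 11 of the 15 were lower, with a median of -0.16, and Cdc20 and Ube2c changed by -2.11 and -2.10. Of the 22 genes of the inner kinetochore and Mis12 complex, 18 were lower and 2 higher at day 4 against day 1, with Cenpk (-1.65) and Nsl1 (-1.43) as the largest falls. The higher genes were Zwint, which links the checkpoint to the kinetochore (0.64), and Cenpt (0.24). Zwint was also higher at day 7 against day 4, with 402 ± 4.63 TPM at day 7, against 305 ± 8.13 TPM at day 4 (log2 fold change 0.40).

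The transcription list holds regulators of these promoters. Of its 16 genes, 10 were lower and 4 higher at day 4 against day 1, where 36.3% of all genes tested were lower and 38.2% higher. By limma on log2(TPM + 1) 8 were lower and 6 higher, with a median of -0.16 beside the all-gene 0.20. Mybl2, the B-MYB activator of late cell cycle genes, had 26.7 ± 2.18 TPM at day 4, against 59.0 ± 0.165 TPM at day 1, and 7.76 ± 0.352 TPM at day 7. E2f7, a repressor of the E2F family, changed by -0.99 at day 4 against day 1 and by -1.79 at day 7 against day 4. Rbl2, the p130 pocket protein of the DREAM repressor complex, moved the other way, with 13.0 ± 0.975 TPM at day 4, against 4.21 ± 0.383 TPM at day 1 (log2 fold change 1.40 ± 0.06), and 22.0 ± 1.09 TPM at day 7 (0.76 ± 0.05 against day 4). Lin52, a subunit of the shared MuvB core, was also higher at day 4 against day 1 (0.52), and did not pass at day 7 against day 4 (-0.12). Other genes of the list went both ways. Mean TPM at days 1, 4 and 7 were 127, 89.4 and 56.5 for E2f4, and 27.8, 23 and 9.13 for Rbl1. They were 17.7, 14.7 and 10.3 for Lin54, 11.1, 12.7 and 8.21 for Lin9, and 341, 342 and 249 for Rbbp4. Those of Lin37 were 18.9, 29.7 and 29.7.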

How the data were processed

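Polyadenylated RNA of 36 libraries was measured, 3 at each of 12 time points. The submitters' processing notes name bcl2fastq 2.20.0, RSEM and GRCm38. Aligner, annotation release and use of strand: not given in the sources used here. The expected counts per gene were estimated by the authors with RSEM before they were deposited, per the submitters' processing notes, and of these values 6.87% were not whole. The authors also deposited TPM, with column sums of 999999.21 to 1000000.98. TPM depend on what else a library holds.

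Expected counts were rounded. edgeR 4.0.16 (filterByExpr, TMM factors 0.924 to 1.06, glmQLFit, glmQLFTest) in R 4.3.3 was fitted to all libraries as 12 groups with 24 residual degrees of freedom. The filter kept 17990 of 32047 genes with at least 1 count, and p-values were adjusted over all of them by Benjamini-Hochberg (threshold 0.05). The fit was run on simulated counts in which few genes changed. Most genes change here, so that run does not check error rates in these data. Standard errors are approximate, taken as |log2 fold change| over the root of F. Replicate pairs differed beyond sampling noise (chi-square over its degrees of freedom was 3.0 to 49.8), and 0 of 36 were identical. Symbols matched 51633 of 51912 IDs.

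The members, lists and comparisons were chosen with earlier results of these data known. Any of the 46 genes could be named; a panel of 13, and the 3 largest and 3 smallest changes at day 4 against day 1 and day 7 against day 4, have values in every library at days 0, 1, 4 and 7. Genes called against most and genes whose call depends on the setting are named, and from the other lists the 2 largest changes each way. Other settings tried were DESeq2 1.42.0, its median-of-ratios scaling in edgeR, limma 3.58.1 on log2(TPM + 1) and log2(TPM + 0.1), no filter on low counts, each library left out in turn, a replicate block, and fits of only those libraries compared. Gene positions are from GENCODE M21 on GRCm38. By its exons 36 of the 46 genes share no sequence with another gene. Ncapd2 shares sequence on the same strand, and Ccna2, Cdc20, Cdc25b, Cdc25c, Cdca8, Prc1, Ube2c, Ncapg and Nusap1 on the other strand. Pseudogenes are named for Ccnb1 and Ccnb2. Values of all these are uncertain. 1 further marker list is not reported here.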

Additional observations from a re-analysis of the deposited data

How the results depend on the processing

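No count or median of the 46 genes reversed under the alternatives run. On the deposited TPM (limma, pseudocounts 1 and 0.1), 1 gene was lower at day 1 against day 0 under both, where the count fit had 5; 2 were higher at day 4 against day 1, where it had 1; the median at day 4 against day 1 was -0.59 under both; that at day 7 against day 4 was -1.83 with a pseudocount of 1; and that at day 7 against day 0 was -2.22 and -2.32. Of the 95 other mitotic genes, 20 were higher at day 4 against day 1 on either TPM scale, where the count fit had 11. In the mean of days 1.5, 2.5 and 3.5, 5 of them were lower on either TPM scale, where the count fit had 2. The all-gene median on TPM reached 0.38, at day 7 against day 0, beside 0.05 in the count fit. With only the libraries compared, 3 genes were lower at day 1 against day 0. With a library left out, that count ran from 2 to 5, and it was 2 without the first or second library of day 1. The median at day 4 against day 1 ran from -1.00 to -0.88, that at day 7 against day 4 from -2.05 to -1.89, and the other mitotic genes higher at day 4 against day 1 from 7 to 11, with 7 without the third library of day 4.

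Of the single genes below, those at day 1 against day 0 were between -0.18 and 0.04 where they changed sign. At day 1 against day 0, on TPM, Anln was at 0.03 and 0.04, Ccnb1 at 0.03, Mad2l1 at -0.02, Smc4 at -0.04, E2f7 at -0.06 and Ncapg2 at -0.03. Smc4 was at -0.000338 with median-of-ratios scaling and -0.000397 with DESeq2, and E2f7 at -0.00261 and -0.0027. With a library left out, Bub1 ran from -0.03 to 0.09, Mad2l1 from -0.09 to 0.08, Smc4 from -0.11 to 0.09, Cenpk from -0.18 to 0.26, E2f7 from -0.02 to 0.04 and Ncapg2 from -0.06 to 0.11, and without the third library of day 1 all 6 were below 0. Racgap1 was at 0.18 on TPM at day 4 against day 1, and Cenpt at 0.21 at day 7 against day 0. The cause was not tested.

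Libraries with the same replicate number shared little deviation from the means of their days. Over 198 such pairs the correlation of deviations ran from -0.0897 to 0.113, and 10 of 36 libraries matched best with their own number. Whether equal numbers came from the same differentiation cannot be told from these correlations. With the replicate number as a block, 27 genes were higher and 4 lower at day 1 against day 0, 1 higher and 45 lower at day 4 against day 1, and 46 lower at day 7 against day 4.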
